A study of Bombus terrestris with 8 samples.

Results

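The neighbouring microRNA genes mir-277 and mir-3730 of the buff-tailed bumblebee *B. terrestris* are described here. They are the 2 of the 65 entries in the deposited list of sequenced miRNAs that carry the names bte-mir-277 and bte-mir-3730, and both lie on the plus strand of scaffold Group5.1. The miRNAs were sequenced from whole bodies of diploid female larvae destined to become workers, of 4 colonies. Early larvae were in instars 1 and 2 and late larvae in instar 4, and neither stage was treated. Each of the 8 small RNA libraries, 4 for each stage, came from whole larvae of 1 colony and 1 stage that had been pooled. The paper states that 2 libraries came from each colony. The sample descriptions do not tell which colony a replicate number stands for, and colonies were not used here. Early and late libraries may thus share colonies, while the main tests took the libraries as independent. The data are raw numbers of reads per listed mature sequence. In bulk larvae, fewer cells that make a miRNA and less of it per cell cannot be told apart.

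MiRNAs are cut as hairpin precursors from longer transcripts, and the mature strand guides a silencing complex to messenger RNAs that pair with its seed, the bases near its 5′ end. Neighbouring hairpins on one strand can be parts of a single primary transcript, but each is processed and degraded on its own terms. In *Drosophila*, mir-277 regulates genes for the breakdown of branched-chain amino acids, and it lies in a cluster with mir-34 and mir-317. mir-317 is also found on Group5.1, and its entry is described here beside the pair.

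The mature sequences of the pair and of bte-mir-317 are shown to let the seeds, bases 2 to 8 in capitals, be compared. They are written as in the deposited list, with T for U.
bte-mir-277: tAAATGCActatctggtacgaca
bte-mir-3730: aCAACGAGggtgaagatcgcg
bte-mir-317: tGAACACAgctggtggtatctcagt
None of the 3 seeds occurred in any other of the 65 entries. The longest run of bases shared by the mature sequences of bte-mir-277 and bte-mir-3730 was 4 nt. bte-mir-277 began with T, as did 42 of the 65 entries (64.6%), and bte-mir-3730 began with A, as did 10 entries. Of the mature bases, 39.1% were G or C in bte-mir-277 and 57.1% in bte-mir-3730, against a median of 45.5% over the list. With 21 nt bte-mir-3730 was 1 of 5 entries of that length, while bte-mir-277 had 23 nt.

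The precursors of the pair are shown with the mature sequence in capitals, because the neighbours carry it on opposite arms of the hairpin.
bte-mir-277: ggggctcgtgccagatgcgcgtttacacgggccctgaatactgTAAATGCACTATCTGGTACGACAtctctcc
bte-mir-3730: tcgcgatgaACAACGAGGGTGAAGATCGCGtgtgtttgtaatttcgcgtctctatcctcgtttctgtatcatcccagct
The precursor of bte-mir-277 lies at Group5.1 from 3556319 to 3556391 on assembly Bter_1.0 and that of bte-mir-3730 from 3557089 to 3557167, with 697 bases between them. The precursor of bte-mir-317, from 3530331 to 3530420 on the same strand, ends 25898 bases before that of bte-mir-277. The other 3 entries on the scaffold are on the minus strand, and the nearest of them, bte-mir-996, lies 3627094 bases beyond bte-mir-3730. Whether the pair lies in an exon, an intron or between genes was not analysed here. In bte-mir-277 the mature sequence is on the 3p arm (bases 44 to 66 of 73), as in 42 of the 65 entries by position in the precursor. In bte-mir-3730 it is on the 5p arm (bases 10 to 30 of 79). The other arm of either hairpin has no entry in the list, so arm usage could not be measured. The authors had predicted bte-mir-277 with miRCat, as they had 47 of the entries, and list bte-mir-3730 as conserved between *Bombus* and other species, as they do 18. For some homologs that no program predicted, a minimum number of reads in these libraries was a further criterion. The list does not tell whether it applied to bte-mir-3730, so a lower total might not have been listed. Entries with the same label and lower totals are in the list, among them bte-mir-3759 with 41 reads. Folded with RNAfold, the precursors had a minimum free energy of −30.6 kcal/mol (bte-mir-277) and −27.0 kcal/mol (bte-mir-3730), both weaker than the median of −34.0 kcal/mol over the list, which ran from −63.4 to −17.6 kcal/mol. In each hairpin 19 bases of the mature sequence were paired, the same as the median of the list.

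Reads on the listed miRNAs numbered 204223 to 502540 in the early libraries and 45649 to 257161 in the late libraries. The full depths of the libraries, beyond the listed miRNAs, were not used here. The late libraries held 27.8% of all listed reads, and late replicate 4 was the shallowest. A rare miRNA was therefore measured with less precision in late larvae. The Clopper-Pearson intervals and the limits for counts of 0 given below cover counting error only, while the intervals of fold changes also cover the spread between libraries.

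The neighbours differed widely in abundance. bte-mir-277 had 5022 reads over the 8 libraries and ranked 22 among the 63 distinct sequences without a blank cell in the list. It stood between bte-mir-279c with 5189 reads and bte-mir-279a with 4580 reads. bte-mir-3730 had 150 reads and ranked 44, between bte-mir-125 with 177 reads and bte-mir-932 with 144 reads. The median over the 63 sequences was 473 reads, so one neighbour stood above it and the other below. bte-mir-317 had 3624 reads and ranked 26.
In early replicates 1 to 4, bte-mir-277 had 1341, 1440, 461 and 573 reads. bte-mir-3730 had 21, 59, 23 and 30 reads in the same libraries. In late replicates 1 to 4, bte-mir-277 had 448, 407, 246 and 106 reads, and bte-mir-3730 had 11, 5, 1 and 0 reads. Every library thus held many reads of bte-mir-277 and few, or none, of its neighbour.
The ratio of the pair within a library needs no scaling between libraries. In early replicates 1 to 4, bte-mir-277 had 63.9, 24.4, 20.0 and 19.1 times the reads of bte-mir-3730. In late replicates 1 to 3 the ratio was 40.7, 81.4 and 246. In late replicate 4, where bte-mir-3730 had 0 reads, bte-mir-277 was at least 35.3-fold higher against a limit of 3 counts. The ratio of 246 rested on 1 read of bte-mir-3730 and its 95% Clopper-Pearson interval ran from 43.7 to 9755. The smallest gap was in early replicate 4 (interval 13.2 to 28.6). On the log2 scale, with 0.5 added to each count, the mean ratio was 5.71 ± 1.35 (SD, n = 8 libraries). It was above 0 in 8 of 8 libraries (two-sided exact sign-flip permutation test, p = 0.00781, the smallest that 8 libraries allow). The libraries came from 4 colonies, so they are not 8 independent units, and this p shows only that the sign was the same in each. The counts were not scaled by the length of the mature sequence. Ligation and amplification can differ between sequences, so the ratio is one of reads and not of molecules. The adaptor with degenerate bases that the authors used is meant to reduce that bias.

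**Figure D1:**
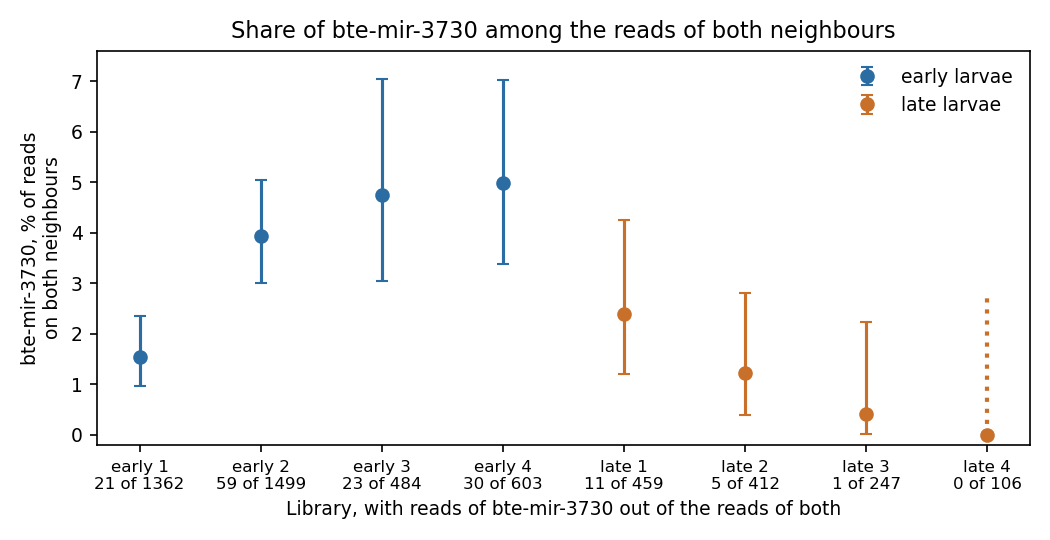
Reads of bte-mir-3730 as a percentage of the reads of both neighbours in each of the 8 libraries. Points are shares, bars are 95% Clopper-Pearson intervals, and the dotted line is the share that 0 reads allow (3 counts); the early shares ran from 1.54% to 4.98% and the late shares from 0% to 2.40%.

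The gap was wider in late larvae on average, but this did not pass the test. bte-mir-3730 made up 1.54%, 3.94%, 4.75% and 4.98% of the pair's reads in early replicates 1 to 4. It made up 2.40%, 1.21% and 0.405% in late replicates 1 to 3, and 0 of 106 reads in late replicate 4, which allows a share of up to 2.83%. Early replicate 1, at 1.54% (interval 0.957 to 2.35), lay among the late libraries, while the other early libraries lay above all 4 late ones. The interval of early replicate 1 did not overlap with that of early replicate 2 (3.01 to 5.05). The log2 ratio was 4.77 ± 0.81 in early and 6.65 ± 1.12 in late libraries (SD, n = 4 each), a difference of 1.88 (two-sided exact permutation test, p = 0.0571, where the smallest possible p is 0.0286). With the 0 of late replicate 4 set to 3 counts, a setting added after the data had been seen, the difference was 1.40 (exact permutation test, p = 0.114). Summed over libraries, which gives deep libraries more weight, the ratio was 28.7 in early larvae (95% Clopper-Pearson interval 24.1 to 34.4) and 71.0 in late larvae (44.2 to 122). The late value rests on 17 reads of bte-mir-3730, 11 of them in late replicate 1, and was 126.5 without that library (57.8 to 346).

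Between stages, neither neighbour passed an adjusted p of 0.05, whereas 20 of the 62 tested sequences (32.3%) did, namely 12 with a higher and 8 (12.9%) with a lower level in late larvae. This split was 12 and 13 with DESeq2, and 11 and 14 with the listed total as scale. The level of bte-mir-277 was close to that of early larvae, with a log2 fold change of 0.09 and an approximate 95% interval of −0.50 to 0.68. The fitted level of bte-mir-3730 was lower in late larvae, by an amount that passed the threshold in some settings only.
For bte-mir-277 the normalized count was 2297, 2503, 2022 and 2245 CPM (counts per 1000000 listed reads after TMM scaling) in early replicates 1 to 4. It was 1989, 3320, 2252 and 2082 CPM in late replicates 1 to 4. The stages overlapped, and late replicate 2 was the highest of the 8 libraries and late replicate 1 the lowest. The mean was 2267 ± 198 CPM in early larvae and 2411 ± 616 CPM in late larvae (SD, n = 4 each). The standard error of the log2 fold change, late over early, was 0.28. For bte-mir-277 the p was 0.774 after Benjamini-Hochberg adjustment over the 62 sequences (edgeR, quasi-likelihood). The median log2 fold change of all 62 sequences was 0.18 under this scaling, 0.13 under DESeq2 and −0.09 when scaled by the listed total. Relative to these medians, bte-mir-277 was at −0.09, −0.09 and −0.07. Its own sign thus followed the scaling, and its place near the middle of the list did not.

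**Figure D2:**
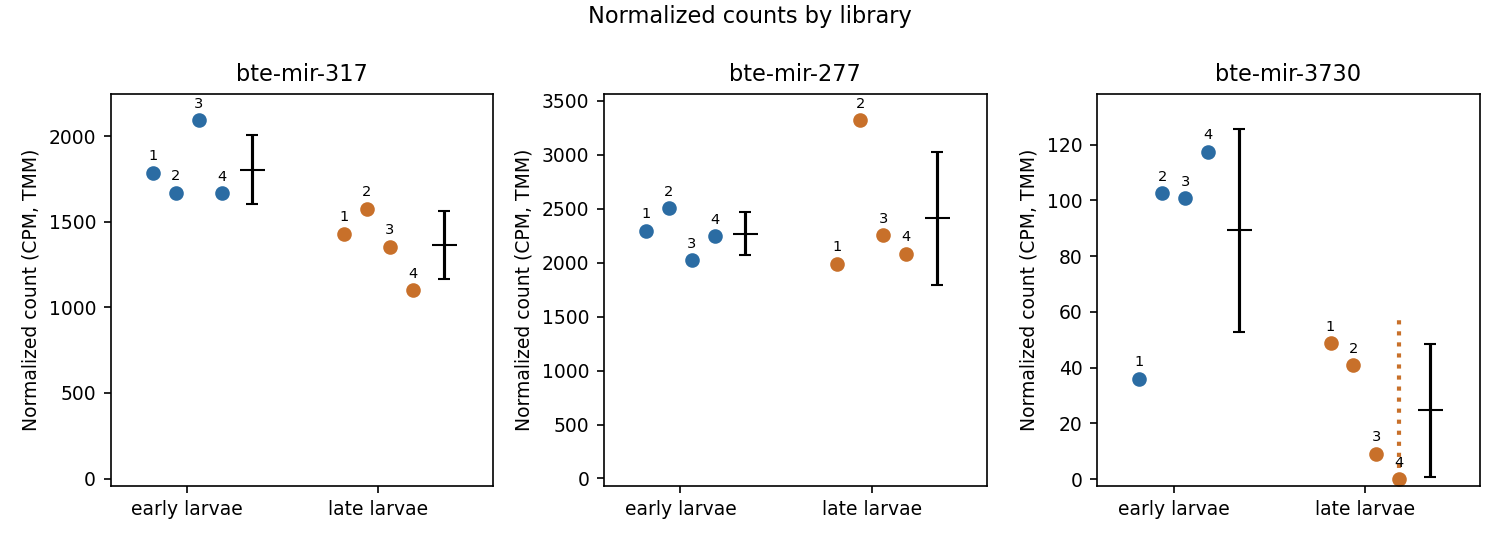
Normalized counts (CPM, TMM scaling) of bte-mir-317, bte-mir-277 and bte-mir-3730 in each library, with replicate numbers beside the points and the mean ± SD of the 4 libraries of a stage in black. The stages overlap for bte-mir-277 and bte-mir-3730 and not for bte-mir-317; the dotted line reaches the 58.9 CPM that 0 reads of bte-mir-3730 allow in late replicate 4.

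For bte-mir-3730 the normalized count was 36.0, 103, 101 and 118 CPM in early replicates 1 to 4. It was 48.8, 40.8, 9.15 and 0 CPM in late replicates 1 to 4. The stages overlapped through early replicate 1, which lay below late replicates 1 and 2, while the other 3 early libraries were above every late value. The 0 of late replicate 4 leaves room for 58.9 CPM (3 counts), which is above early replicate 1 and below the other early libraries. The mean was 89.2 ± 36.3 CPM in early larvae and 24.7 ± 23.8 CPM in late larvae (SD, n = 4 each).
The log2 fold change was −1.53 (standard error 0.66, approximate 95% interval −2.93 to −0.12, not adjusted for the 62 sequences), or −1.71 relative to the median of the list. Its unadjusted p was 0.0353 and its adjusted p 0.0876 in edgeR's quasi-likelihood test. The unadjusted p was under 0.05 for 27 of the 62 sequences (43.5%). In the order of log2 fold changes bte-mir-3730 was number 6 from the lower end, and bte-mir-277 number 29.
The call depended on the fit. The adjusted p was 0.0304 with DESeq2, where 21.0% of the sequences were called lower. It was 0.0347 with the listed total as scale, where 22.6% were. Without late replicate 1, the late library with the most reads of bte-mir-3730, the log2 fold change was −2.65 and the adjusted p 0.00614 (edgeR), but 32.3% of the sequences were then called lower and the median of the list was −0.51. Over all 13 alternative fits the adjusted p of bte-mir-3730 ranged from 0.00614 to 0.216 and the log2 fold change was below 0 in each, also relative to the median of the list.
The late counts of bte-mir-3730 were below those that the pooled early rate gives at the same depth, which restates the same reads. At the pooled early rate of 89.7 CPM of the listed reads, late replicates 1 to 4 would have held 23.1, 12.7, 11.4 and 4.09 reads. They held 11, 5, 1 and 0. The pooled rate leaves out the spread between early libraries, which had 41.8, 117, 113 and 109 CPM of the listed reads. Late replicates 1 to 4 had 42.8, 35.3, 7.83 and 0 CPM on this scale, so the first 2 were close to early replicate 1. Of all reads of bte-mir-3730, 11.3% were in late libraries, against 24.0% for bte-mir-277 and 19.8% for bte-mir-317.

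**Figure D3:**
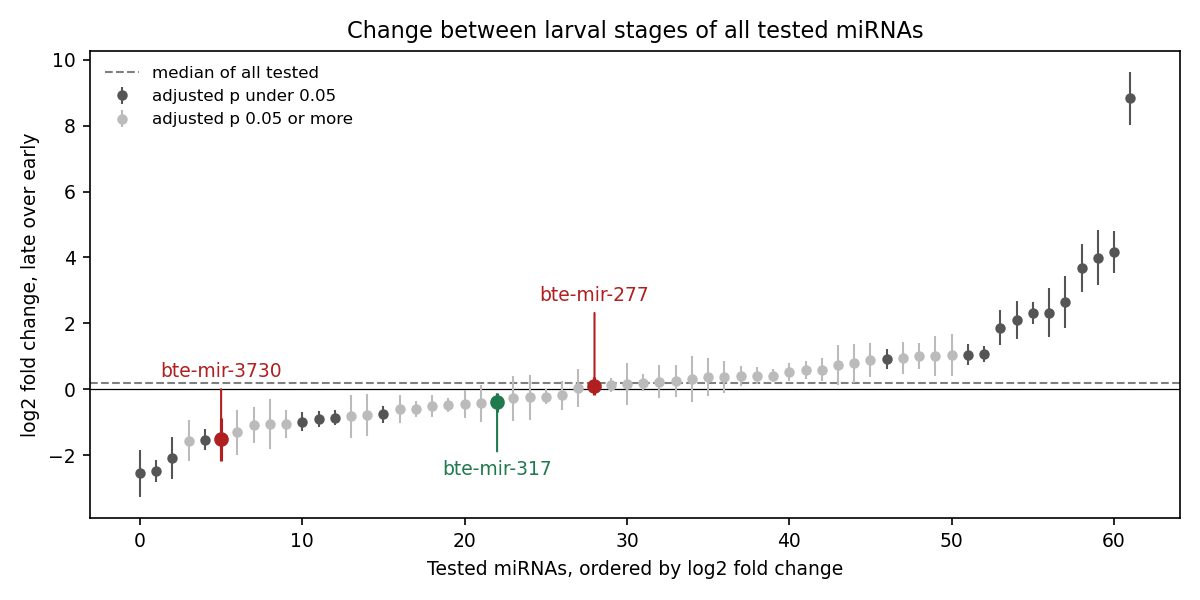
Log2 fold change between late and early larvae for the 62 tested miRNAs, ordered by size, with standard errors (edgeR, TMM); dark points have an adjusted p under 0.05. bte-mir-3730 (−1.53) lies near the lower end, bte-mir-277 (0.09) and bte-mir-317 (−0.40) in the middle, and all 3 had an adjusted p above 0.05.

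bte-mir-317, the more distant neighbour on the same strand, was close to bte-mir-277 in abundance. Its normalized count was 1787, 1668, 2092 and 1665 CPM in early replicates 1 to 4 and 1430, 1574, 1355 and 1100 CPM in late replicates 1 to 4. Every late library lay below every early one, as did those of 19.4% of the tested sequences. The log2 fold change was −0.40 (standard error 0.28) and the adjusted p 0.270 in edgeR's quasi-likelihood test, so this did not pass the threshold either. bte-mir-277 had 1.29, 1.50, 0.966 and 1.35 times the reads of bte-mir-317 in early replicates 1 to 4. In late replicates 1 to 4 it had 1.39, 2.11, 1.66 and 1.89 times as many. The stages overlapped in this ratio, with means of 1.28 ± 0.225 in early and 1.76 ± 0.308 in late larvae (SD, n = 4 each), and the difference was not tested.
The 3 plus-strand neighbours thus had fitted changes of −0.40, 0.09 and −1.53 in their order along the scaffold, none of which passed the threshold. Of the minus-strand entries, bte-mir-279a (0.60, adjusted p = 0.188) and bte-mir-996 (−0.61, adjusted p = 0.262) did not pass it in edgeR's test, and bte-mir-3759, with 41 reads in all, was higher in late larvae (2.64, adjusted p = 0.0168).

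Of 8 miRNAs that share the cluster of mir-277 in *Drosophila* or are linked to metabolism, insulin signalling or feeding in flies or mosquitoes, 3 have an entry in the list (mir-317, mir-8 and mir-275) and 2 of these could be tested. The other 5 (mir-34, mir-14, mir-33, mir-278 and mir-305) were not analysed here. Neither bte-mir-317 nor bte-mir-8 was called by edgeR, against 32.3% of all tested sequences, or by DESeq2, against 25 of the 62. In edgeR 1 of the 2, bte-mir-8, had an unadjusted p under 0.05, against 43.5% of all. bte-mir-8, which acts on insulin signalling in the fly fat body, was far more abundant than the pair, at 52121 ± 2913 CPM in early and 69513 ± 7617 CPM in late larvae (SD, n = 4 each; log2 fold change 0.42, edgeR adjusted p = 0.0927). The log2 fold changes of the 2 went opposite ways, −0.40 for bte-mir-317 and 0.42 for bte-mir-8. Their median of 0.01 is only the midpoint of these, against a median of 0.18 over all tested sequences.

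The profiles of the neighbours over the libraries were not alike. Pearson's r of their log2 normalized counts was 0.11 over the 8 libraries, points that share the stages and the scaling, and bte-mir-3730 has few reads. The sequences most like bte-mir-277 were bte-mir-750 (r = 0.78), bte-mir-3477 (r = 0.66) and bte-mir-307 (r = 0.63), each of which was highest in late replicate 2, as was bte-mir-277. Those most like bte-mir-3730 were bte-bantam (r = 0.93), a promoter of growth and blocker of cell death in *Drosophila*, MC314 (r = 0.91) and MC65 (r = 0.91). MC314 and MC65 are entries without a miRBase name that, like bte-mir-3730, had 0 reads in late replicate 4, and the mature sequence of MC65 also occurs in the precursor of MC1030. MC314 had 124 reads in all and MC65 63, and at 0 reads the prior count sets the log2 value. The values of r given are the highest picked from all tested sequences, and none was tested. bte-bantam (−0.86) and MC314 (−2.55) were both lower in late larvae (edgeR adjusted p = 0.0129 each), and MC65 was not called (−0.28, adjusted p = 0.732).

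**Figure D4:**
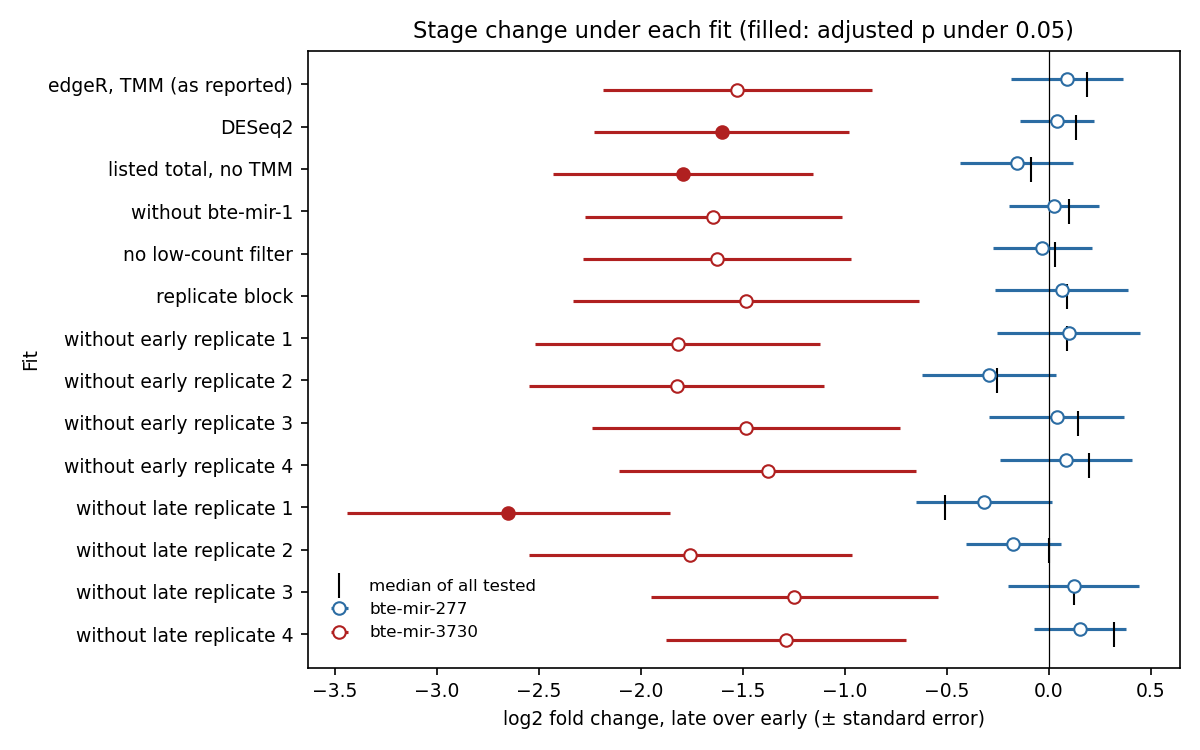
Log2 fold change between late and early larvae (± standard error) of bte-mir-277 (blue) and bte-mir-3730 (red) in the reported fit and its 13 alternatives, with the median of all tested miRNAs as a black tick; filled points have an adjusted p under 0.05. bte-mir-277 stays within −0.32 and 0.15 and near the median, while bte-mir-3730 runs from −2.65 to −1.25 and is filled in 3 alternatives.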

How the data were processed

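Small RNA libraries from 4 early and 4 late pools of larvae were analysed. After mapping all libraries together to the genome of *B. terrestris*, the authors predicted precursors with miRCat. They deposited raw counts of reads per listed mature sequence, neither normalized nor pooled. The aligner, the mismatches tolerated, how end variants were counted and whether the degenerate adaptor bases served to remove duplicates are not given in the sources used here, and each could change a count. Columns were matched to samples by stage initials and number, and 0 were left unmatched.

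1 entry with 7 blank cells (bte-mir-275) was left out, and 2 loci with the same mature sequence entered as 1, leaving 63 sequences. The 62 with at least 10 counts in all were scaled by TMM and tested with edgeR 4.0.16 (quasi-likelihood, stage as the only term, Benjamini-Hochberg adjustment) in R 4.3.3. Standard errors were approximated by dividing the size of the log2 fold change by the square root of F, and intervals use the degrees of freedom of the quasi-likelihood test. The biological coefficient of variation was 37.4%. Ratios of the pair (0.5 added to each count) were tested by exact permutation and exact sign flips in Python 3.11.15. Profiles were compared on log2 CPM with a prior count of 2. Precursors were folded with RNAfold 2.7.2. On 30 simulated data sets, 15 of the 62 sequences were changed by 2 on the log2 scale. The edgeR test called 87.6% of those changed, with 5.06% false calls, and no smaller change was simulated. Every simulated sequence had the same biological coefficient of variation, and those changed were drawn from all abundances. The rates are therefore averages and do not hold for a sequence as rare as bte-mir-3730. The alternatives were DESeq2 1.42.0, scaling by the listed total, bte-mir-1 left out, no filter, each library left out, a pseudocount of 1 and the replicate number as a block. Setting 0 to 3 counts was added after the data were seen.

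The members, lists and tests were chosen with earlier results of these data known. Named were the pair, the list of 8, the entries of Group5.1, entries sharing a seed, the 3 most similar profiles of each member and its neighbours in total count.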

Additional observations from a re-analysis of the deposited data

Results flagged for a closer look

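bte-mir-275, which is linked to blood feeding in mosquitoes and was on the list of metabolic miRNAs, had 355 reads in late replicate 4, and its cells for the other 7 libraries were blank. It was looked at because these reads stand outside the comparison of stages, and a blank cell cannot be read as 0. None of the 18 groups of 4 libraries examined for the entries of Group5.1, bte-mir-8 and the ratios within the cluster held a library far from the other 3 by Dixon's test, although early replicate 1 came close for bte-mir-3730 (gap over range 0.796, critical value 0.829) and late replicate 2 for bte-mir-277 (0.803).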

How the results depend on the processing

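The log2 fold change of bte-mir-277 turned from 0.09 to −0.16 with scaling by the listed total and to −0.034 without the filter, and ranged from −0.32 to 0.15 with a library left out (adjusted p of edgeR or DESeq2 from 0.457 to 0.939 over all alternatives). It turned without early replicate 2 (−0.29), late replicate 1 (−0.32) or late replicate 2 (−0.18). In the first of these the median of the list also turned, to −0.26, and in the second to −0.51. bte-mir-3730 passed 0.05 with DESeq2 (−1.60) and with scaling by the listed total (−1.79), and ranged from −2.65 to −1.25 with a library left out. The cause was not tested. The difference in log2 ratio between stages was 1.50 with a pseudocount of 1 and 1.51 to 2.33 with a library left out, and the gap itself 5.42 to 5.92, all with the same direction and the same side of the threshold. The number of sequences called was 20, 25 with DESeq2 and 15 to 29 with a library left out. Of bte-mir-317 and bte-mir-8, 0 to 1 were called with a library left out (bte-mir-317 without late replicate 1, edgeR adjusted p = 0.0406). In that fit 29 of the 62 sequences were called, 20 of them (32.3%) lower in late larvae.
Libraries with the same number did not vary together (r of their deviations from the stage means over the list from −0.12 to 0.07). For libraries with different numbers r ran from −0.15 to 0.18, so this cannot tell whether equal numbers share a colony. The main tests did not take the numbers as pairs. With the replicate number as a block, bte-mir-277 was at 0.06 and bte-mir-3730 at −1.48 (edgeR adjusted p = 0.216), 18 sequences were called, and the difference in ratio had an exact p of 0.25, where 4 pairs allow no less than 0.125. Depth limits bte-mir-3730 in late larvae, where 17 reads carry every value.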
